A study of Mus musculus with 14 samples.

Results

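DNA replication and S phase genes are described here as 43 genes, which encode the proteins that copy chromosomal DNA, supply its building blocks and control entry into S phase. They were listed by the known work of their products. For a gene with several probes the brightest was used, among probes standing well clear of background on 7 or more of the 14 arrays. All 43 were measured, each was well above background on all 14 arrays and none was saturated, so the filter removed no member. They stand among 24908 genes and transcripts tested, of which 14729 carry a symbol.

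Mice immunised to induce arthritis, 7 WT and 7 Sting gt/gt, each gave splenocyte RNA for 1 Agilent array, to ask which splenic genes depend on STING. All mice were C57BL/6, were injected at 10 to 14 weeks of age with chicken type II collagen (CII) in complete Freund's adjuvant (CFA), and gave their spleens 2 weeks later. WT mice were bought from a national animal centre, whereas Sting gt/gt mice (golden ticket, Tmem173gt) carry an allele induced with ENU and came from another laboratory, so the allele and the origin of the mice cannot be told apart. Both were bred and housed in the same facility, and red blood cells were lysed during preparation of the splenocytes. Between 31117 and 34400 probes were well above background in WT mice and between 30781 and 33620 in Sting gt/gt mice. The golden ticket allele changes the protein, so the level of its transcript does not check the genotype labels and is not given here.

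Replicates 1 to 3 of both genotypes were scanned on 1 day (scan day 1) and replicates 4 to 7 on another (scan day 2). The slides were shared unevenly. On scan day 1, slide 1 held WT replicates 1 and 2 with Sting gt/gt replicate 1, slide 2 held WT replicate 3 with Sting gt/gt replicate 2, and slide 3 held Sting gt/gt replicate 3 alone. On scan day 2 no slide held both genotypes, with 4 WT arrays on 2 slides and 4 Sting gt/gt arrays together on 1, and there the slide cannot be told apart from the genotype. Genotypes were therefore compared over all mice and within each set of replicates. Levels are given as log2 intensity with the array's 75th percentile at 0, and a difference is Sting gt/gt minus WT on that scale.

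Chromosomal DNA is copied once per cell cycle. In G1 the origin recognition complex, with Cdc6 and Cdt1, loads the MCM helicase onto origins, and in S phase Cdc45 and the GINS complex switch the helicase on. DNA polymerases then extend primers behind it with the help of the PCNA clamp, and many of these genes are E2F targets, so their RNA is abundant in dividing cells. In the spleen, dividing cells include activated lymphocytes, plasmablasts and, in the mouse, erythroid precursors of the red pulp.

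No member differed between the genotypes when all mice were compared. With limma 0 of 43 members passed an adjusted p under 0.05, against 0.00401% of all genes tested, and 0 passed an unadjusted p under 0.05, against 3.48% of all genes. A term for the set of replicates raised the number of all genes past an unadjusted p under 0.05 from 868 to 1812, with 0 members among them. Sting gt/gt mice had 20 members higher and 23 lower than WT mice, and the median difference was -0.012, while the median of all genes was 0.017. The differences ran from -0.27 for Mcm2 to 0.15 for Rfc5, and the lowest unadjusted p was 0.330 by limma, for Pola2. The genotypes overlapped for every member, and for all but 11 of all genes (0.0442%). The median standard error of a member was 0.18, so differences of modest size would not have been detected, and a p above the threshold does not show that the genotypes were alike.

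Members differed widely from mouse to mouse. Within a genotype and scan day the standard deviation of a member had a median of 0.35, from 0.17 for Rfc1 to 0.69 for Mcm2. Over all genes its median was 0.23 and its highest value 3.65, for the Y-linked gene Eif2s3y. The sex of the mice is not stated, and its part in these values was not tested. The median range over the 14 arrays was 1.11 for members and 1.04 for all genes, and the median absolute difference between the genotypes was 0.056 and 0.11.

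**Figure D1:**
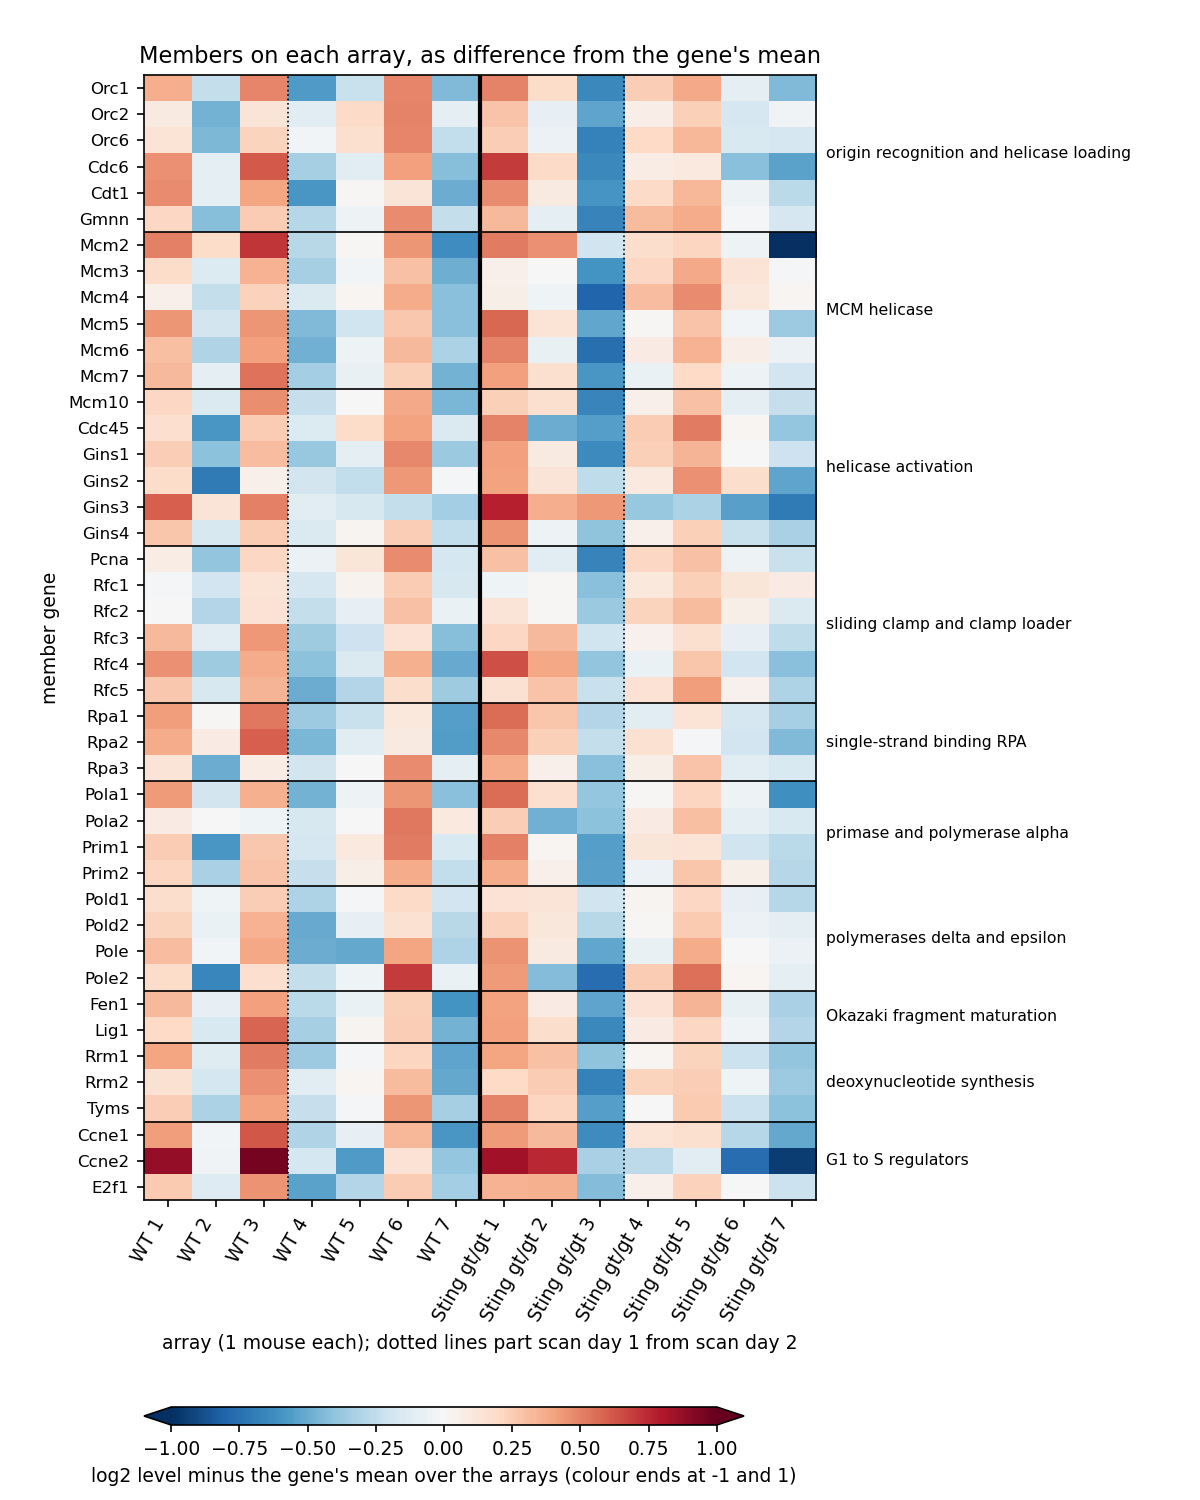
Level of each of the 43 members (one line per gene, grouped by role) on each of the 14 arrays (columns), as log2 difference from the gene's own mean over the arrays, red above and blue below. Columns are coloured much alike from top to bottom, as in WT replicate 3 (mostly red, mean 0.37) and Sting gt/gt replicate 3 (mostly blue, mean -0.47), while both genotypes hold columns of either colour.

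The members moved together within single mice. Averaged over the 43 members, the difference from each gene's own mean over the arrays was 0.28, -0.22, 0.37, -0.30, -0.070, 0.33 and -0.34 in WT replicates 1 to 7. In Sting gt/gt replicates 1 to 7 it was 0.39, 0.11, -0.47, 0.085, 0.26, -0.093 and -0.33. High and low mice were thus found in both genotypes and on both scan days, and the ranges of the genotypes overlapped almost fully. In Sting gt/gt replicate 1 and in WT replicates 1, 3 and 6, 42 of 43 members lay above their own mean, while 0 did in WT replicate 4, 1 in WT replicate 7 and in Sting gt/gt replicate 3, and 2 in Sting gt/gt replicate 7. The lowest value of a member over all arrays was in Sting gt/gt replicate 3 for 24 of 43 members, and the highest was in WT replicate 3 for 14, in Sting gt/gt replicate 1 for 12 and in WT replicate 6 for 11. Among all genes 7.90% had their lowest value in Sting gt/gt replicate 3. Their highest was in WT replicate 3 for 7.35%, in Sting gt/gt replicate 1 for 14.3% and in WT replicate 6 for 5.23%. In RNA of whole splenocytes, fewer dividing cells and less of this RNA per cell cannot be told apart.

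The direction of the genotype difference turned with the set of replicates. Sting gt/gt mice of replicates 1 to 3 had 38 members lower and 5 higher than WT mice, and the median was -0.15, while the median of all genes was 0.016. By limma 0 of 43 members passed an adjusted p under 0.05 there (0% of all genes) and 0 an unadjusted p under 0.05 (5.56% of all genes). In replicates 4 to 7, 31 members were higher and 12 lower, with a median of 0.087 against 0.017 for all genes. Again 0 passed an adjusted p under 0.05 by limma (3.68% of all genes) and 0 an unadjusted one (22.1% of all genes). In all, 29 of 43 members (67.4%) were lower in replicates 1 to 3 and higher in replicates 4 to 7, a pair of signs that 29.3% of all genes had. The difference between the sets, tested as an interaction, had a median of 0.27 over the members, with 36 of 43 above 0, and by limma 0 members passed an adjusted p under 0.05 (0.767% of all genes) and 0 an unadjusted p under 0.05 (18% of all genes). The largest interaction was 0.62 for Mcm3 (95% interval -0.0070 to 1.25, adjusted p = 0.283 by limma).

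The direction in replicates 1 to 3 turned with a single array, Sting gt/gt replicate 3, which lay alone on its slide, so the mouse and the slide cannot be told apart. Without it the median there was 0.085 with 40 of 43 members higher, and the median interaction was 0.016. Other arrays moved these values the other way, to -0.35 without Sting gt/gt replicate 1 and, for the interaction, to 0.44 without WT replicate 2. Without Sting gt/gt replicate 5 the median in replicates 4 to 7 was -0.014, and without WT replicate 6 it was 0.23. Over all mice the median ran from -0.080 without Sting gt/gt replicate 1 to 0.074 without Sting gt/gt replicate 3. When slides were held fixed, which leaves only 3 WT arrays and 2 Sting gt/gt arrays, all from scan day 1, to compare, the median was 0.089.

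**Figure D2:**
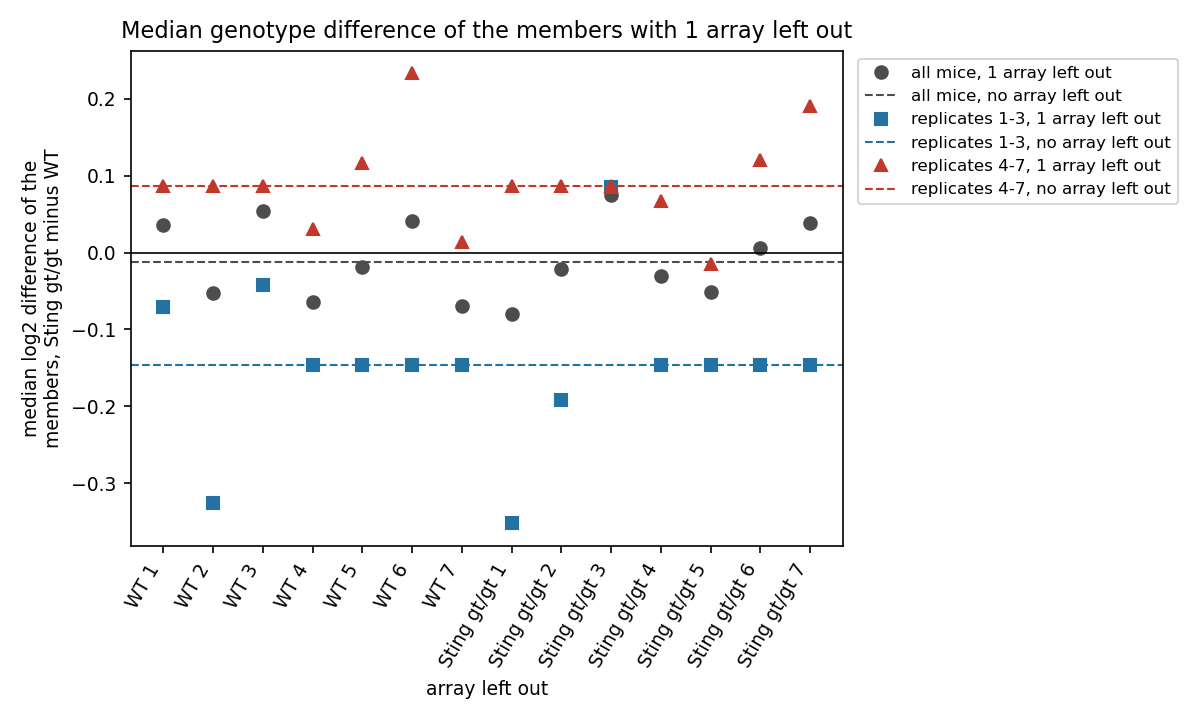
Median log2 difference of the 43 members, Sting gt/gt minus WT (vertical axis), with the array named on the horizontal axis left out, for all mice (circles), replicates 1 to 3 (squares) and replicates 4 to 7 (triangles), and dashed lines for no array left out. In replicates 1 to 3 the median lay below 0 except without Sting gt/gt replicate 3 (0.085), and in replicates 4 to 7 it lay above 0 except without Sting gt/gt replicate 5 (-0.014).

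Of the genes for origin recognition and helicase loading, 3 of 6 were higher and 3 lower over all mice, all 6 were lower in replicates 1 to 3, and 3 of 6 were higher in replicates 4 to 7. Cdc6, the ATPase that recruits the MCM complex to origins, ranged over 1.76 to 2.81 (median 2.10) in WT mice and over 1.55 to 2.89 (median 2.26) in Sting gt/gt mice. Its highest value was in Sting gt/gt replicate 1 and its lowest in Sting gt/gt replicate 3, so the WT range lay inside that of the Sting gt/gt mice. Cdc6 differed by -0.15 over all mice (standard error 0.22, 95% interval -0.63 to 0.32). Cdt1, its partner in loading, ranged over 3.72 to 4.77 (median 4.31) in WT mice and over 3.71 to 4.78 (median 4.39) in Sting gt/gt mice, so both genotypes covered nearly the same range. Cdt1 differed by 0.048 over all mice, by -0.27 in replicates 1 to 3 (95% interval -0.86 to 0.33) and by 0.28 in replicates 4 to 7 (95% interval -0.23 to 0.80). The differences of the other 4 genes lay between those of these 2 over all mice.

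The MCM helicase is a ring of the products of 6 genes, Mcm2 to Mcm7. All 6 were lower in Sting gt/gt mice in replicates 1 to 3 (median -0.25), 5 of 6 were higher in replicates 4 to 7 (median 0.21), and over all mice 4 were higher and 2 lower (median 0.029). Mcm3 was at 4.88, 4.56 and 5.04 in WT replicates 1 to 3 and at 4.75, 4.70 and 4.10 in Sting gt/gt replicates 1 to 3. On scan day 2 it was at 4.36, 4.67, 4.99 and 4.21 in WT replicates 4 to 7 and at 4.90, 5.07, 4.83 and 4.67 in Sting gt/gt replicates 4 to 7. The genotypes overlapped in both sets, with Sting gt/gt replicate 3 lowest on scan day 1 and WT replicate 7 lowest on scan day 2. Mcm3 differed by -0.31 in replicates 1 to 3 (95% interval -0.79 to 0.16) and by 0.31 in replicates 4 to 7 (95% interval -0.10 to 0.72). Its 2 other probes differed by 0.29 and 0.35 in replicates 4 to 7.

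Mcm2 stood apart from the rest of the ring in a single mouse. It ranged over 2.24 to 3.58 (median 3.05) in WT mice and over 0.78 to 3.38 (median 3.04) in Sting gt/gt mice. The value of 0.78 came from Sting gt/gt replicate 7, where none of the other MCM genes was as far below its own mean, and all other Sting gt/gt mice lay within the WT range. Mcm2 differed by -0.27 over all mice (standard error 0.35, 95% interval -1.01 to 0.46) and by 0.049 without that array. Within the sets it differed by -0.21 in replicates 1 to 3 and by -0.32 in replicates 4 to 7, the latter becoming 0.23 without Sting gt/gt replicate 7.

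Helicase activation was represented by Mcm10, Cdc45 and the 4 GINS subunits, of which 2 were higher and 4 lower over all mice. Gins3 had levels that parted by scan day. It was at 4.51, 4.04 and 4.42 in WT replicates 1 to 3 and at 4.69, 4.28 and 4.34 in Sting gt/gt replicates 1 to 3. In replicates 4 to 7 it was at 3.75, 3.67 and 3.57 in WT replicates 5 to 7, a little higher in WT replicate 4, and at 3.53, 3.60, 3.37 and 3.20 in Sting gt/gt mice. Every array of scan day 2 lay below every array of scan day 1, and Sting gt/gt replicate 3, low for most members, was not low for Gins3. Gins3 differed between the genotypes by 0.11 in replicates 1 to 3 (95% interval -0.22 to 0.45) and by -0.27 in replicates 4 to 7 (95% interval -0.56 to 0.018, adjusted p = 0.255 by limma), with an interaction of -0.39 (adjusted p = 0.346 by limma). Gins2 differed by 0.14 over all mice (95% interval -0.25 to 0.53), and Mcm10, a scaffold that joins the helicase to polymerase alpha, by -0.065 (95% interval -0.43 to 0.30).

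Pcna, the ring that tethers polymerases to DNA, ranged over 5.39 to 6.26 (median 5.86) in WT mice and over 5.12 to 6.08 (median 5.74) in Sting gt/gt mice. Its lowest value was in Sting gt/gt replicate 3 and its highest in WT replicate 6, and the other arrays of both genotypes were mixed between them. Pcna differed by -0.073 over all mice (standard error 0.16, 95% interval -0.42 to 0.27). The 5 subunits of replication factor C, which opens and loads the clamp, were all higher over all mice and in replicates 4 to 7. In replicates 1 to 3, 1 of 5 was higher. These counts turned with the probe. The other probe of Rfc4 differed by -0.085 over all mice and by -0.38 in replicates 1 to 3. That of Rfc3 differed by -0.014 over all mice and in replicates 4 to 7. Rfc5 was the highest of the 5 subunits over all mice, at 0.15 (95% interval -0.19 to 0.48). In replicates 4 to 7 Rfc5 differed by 0.32 (95% interval -0.093 to 0.73, adjusted p = 0.347 by limma). Rfc1, the large subunit, had the smallest standard deviation of any member within a genotype and scan day. Over all mice Rfc1 differed by 0.029 (95% interval -0.21 to 0.27).

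Rpa1, Rpa2 and Rpa3 form the complex that coats single-stranded DNA. Over all mice Rpa1 differed by 0.023 (95% interval -0.37 to 0.42), Rpa2 by -0.0056 (95% interval -0.41 to 0.40) and Rpa3 by 0.027 (95% interval -0.29 to 0.35). Primase and polymerase alpha, which lay down the primers, gave 4 of 4 genes lower over all mice, with Pola2 at -0.14 (95% interval -0.45 to 0.16) and Prim1 at -0.069 (95% interval -0.45 to 0.32). Pola2 ranged over -2.48 to -1.80 (median -2.32) in WT mice and over -2.80 to -2.02 (median -2.42) in Sting gt/gt mice. WT replicate 6 was the highest by some distance, and the remaining WT mice lay within the Sting gt/gt range.

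The polymerases delta and epsilon, which copy the bulk of the genome, were represented by 4 genes, all lower in replicates 1 to 3 and all higher in replicates 4 to 7. Pole, the catalytic subunit of polymerase epsilon, ranged over 1.64 to 2.54 (median 2.12) in WT mice and over 1.62 to 2.59 (median 2.14) in Sting gt/gt mice, so the genotypes shared almost the same range. Pole differed by -0.22 in replicates 1 to 3 (95% interval -0.79 to 0.36) and by 0.29 in replicates 4 to 7 (95% interval -0.21 to 0.78). Fen1 and Lig1 trim and join Okazaki fragments, and over all mice they differed by 0.011 and -0.028. Fen1 differed by -0.23 in replicates 1 to 3 and by 0.19 in replicates 4 to 7, and Lig1 by -0.23 and 0.12, with 95% intervals that included 0 in each case.

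Deoxynucleotides are supplied by ribonucleotide reductase, encoded by Rrm1 and Rrm2, and by thymidylate synthase, encoded by Tyms. All 3 genes were lower over all mice, with a median of -0.043. Rrm2 ranged over 5.48 to 6.44 (median 6.01) in WT mice and over 5.31 to 6.24 (median 6.19) in Sting gt/gt mice. The median was higher in Sting gt/gt mice although the mean was lower, since Sting gt/gt replicate 3 was the lowest array of all. Rrm2 differed by -0.043 (95% interval -0.42 to 0.33) and Tyms by -0.057 (95% interval -0.45 to 0.33).

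E2f1, a transcription factor that drives S phase genes, ranged over 1.15 to 2.14 (median 1.56) in WT mice and over 1.25 to 2.04 (median 1.74) in Sting gt/gt mice, so the Sting gt/gt range lay inside that of the WT mice. E2f1 differed by 0.094 over all mice (95% interval -0.27 to 0.46), by -0.11 in replicates 1 to 3 and by 0.24 in replicates 4 to 7. Ccne1 and Ccne2 encode the E-type cyclins that activate CDK2 at the start of S phase. Ccne1 differed by -0.30 in replicates 1 to 3 (95% interval -0.95 to 0.35) and by 0.032 in replicates 4 to 7 (95% interval -0.53 to 0.60). Ccne2 differed by -0.23 over all mice (standard error 0.31, 95% interval -0.90 to 0.44), and its genotypes overlapped in both sets.

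**Figure D3:**
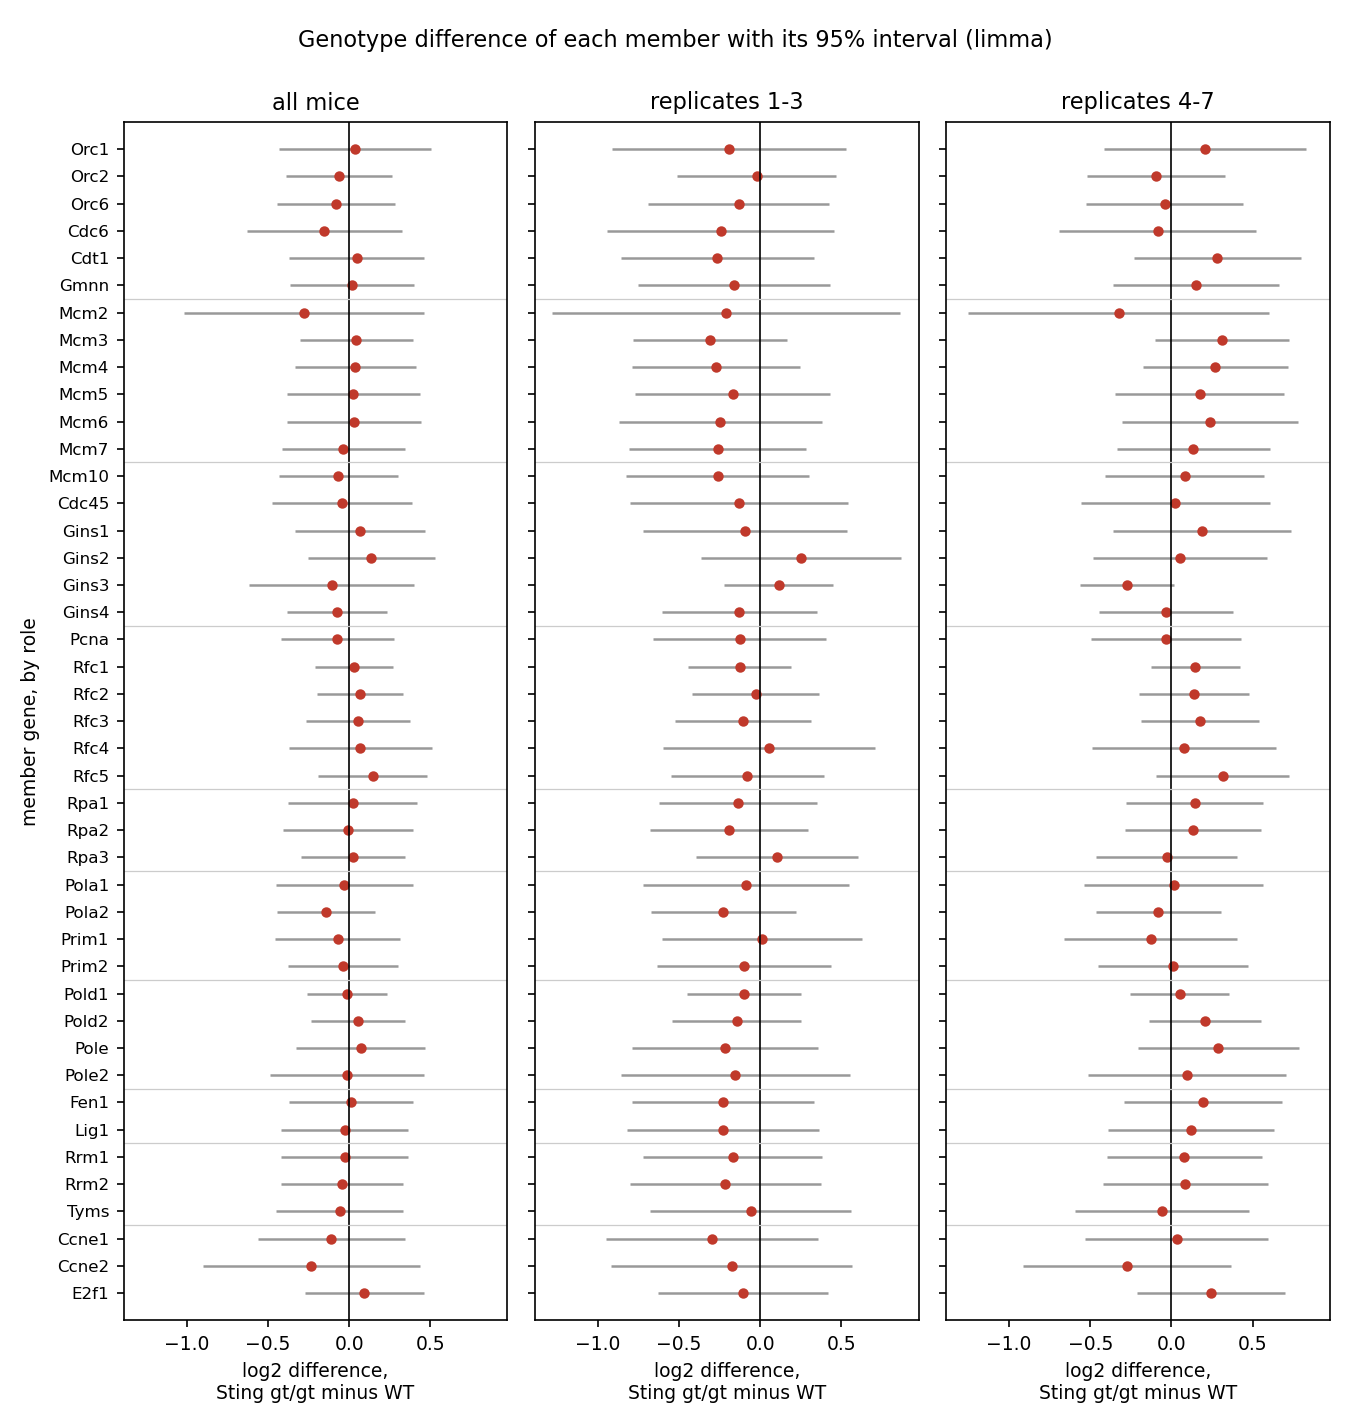
Log2 difference of each of the 43 members, Sting gt/gt minus WT (horizontal axis, points) with its 95% interval from limma (lines), over all mice, in replicates 1 to 3 and in replicates 4 to 7. Every interval includes 0, most points lie left of 0 in replicates 1 to 3 (38 of 43) and right of 0 in replicates 4 to 7 (31 of 43), and without Sting gt/gt replicate 3 the first of these turned.

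Replicates 4 to 7 were also compared with replicates 1 to 3 across both genotypes, a comparison in which the scan day and the set of mice cannot be told apart. By limma 4 of 43 members (9.30%) passed an adjusted p under 0.05, all lower in replicates 4 to 7, while 41.3% of all genes passed. At an unadjusted p under 0.05, 5 members passed, against 49.3% of all genes. The fifth was Rfc3 (-0.28), named after its values were seen, and its other probe differed by -0.037. The median over the members was -0.14, and with median centring of the arrays, which moved the median of all genes from -0.013 to 0.17, it was 0.036. It ran from -0.24 without Sting gt/gt replicate 3 to -0.057 without Sting gt/gt replicate 1. Marker lists described below also held calls between the sets by limma, beside 41.3% of all genes. Called higher in replicates 4 to 7 were 6 of 7 plasma cell genes (median 0.42), 4 of 5 NK cell genes (0.55) and 3 of 5 germinal centre B cell genes (0.38). Called lower were 3 of 5 mature neutrophil genes (-0.73) and 3 of 9 erythroid markers (-0.30). Of 7 B cell markers 2 were called higher and 1 lower. The part of these cells in the set difference was not tested.

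The 4 members that fell were Gins3, Ccne2, Rpa2 and Rpa1. Gins3 fell by 0.82 (standard error 0.10, adjusted p = 4.41e-05 by limma), and each of the 8 arrays of replicates 4 to 7 was lower than each of the 6 arrays of replicates 1 to 3. Ccne2 was between -3.72 and -2.44 in replicates 1 to 3 and between -4.35 and -3.26 in replicates 4 to 7, and fell by 0.89 (standard error 0.23, adjusted p = 0.00686 by limma). WT replicate 2 and Sting gt/gt replicate 3 lay among the arrays of scan day 2 for this gene. Rpa2 was between 0.85 and 1.69 and then between 0.53 and 1.24, and fell by 0.45 (adjusted p = 0.0272 by limma). Rpa1 was between 4.23 and 5.09 and then between 3.98 and 4.67, and fell by 0.44 (adjusted p = 0.0317 by limma). For Ccne2, Rpa2 and Rpa1 the sets overlapped, yet all 8 arrays of replicates 4 to 7 lay below the median of replicates 1 to 3. Each of the 4 was read by a single probe. Probes of a gene can differ in this comparison, as the 3 probes of Mcm3 did (0.043, 0.43 and 0.32). Probes of some members took opposite signs, among them Pola1 (-0.27 for the probe used, 0.67 for the other), Orc1 (-0.19 and 0.37) and Orc2 (0.17 and -0.23). In the authors' series table of log2 values none of these 4 calls was made (there 0 of all genes were called and 451 passed an unadjusted p under 0.05), and Gins3 and Ccne2 were slightly higher in replicates 4 to 7 (0.037 and 0.062). Rpa1 and Rpa2 were also not called with median centring, nor when certain single arrays were left out.

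**Figure D4:**
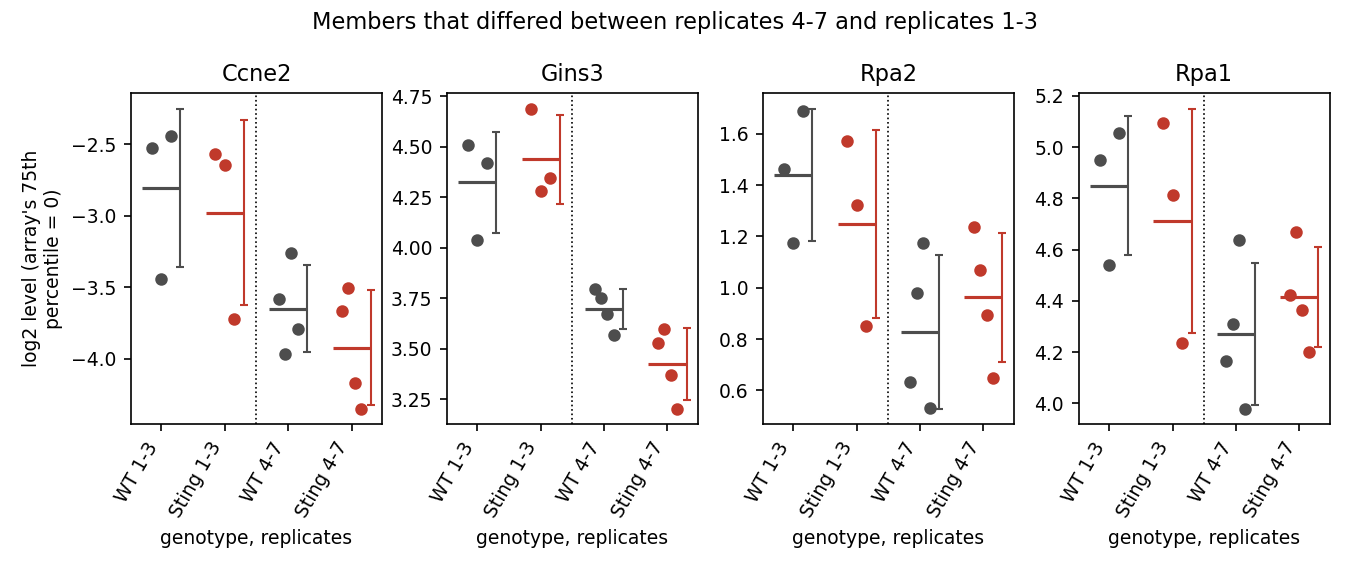
Log2 level (vertical axis, separate scale for each gene) of the 4 members that differed between replicates 4 to 7 and replicates 1 to 3, by genotype and set, with points for arrays, bars for the mean and whiskers for 1 SD. For Gins3 the 8 arrays of replicates 4 to 7 all lie below the 6 arrays of replicates 1 to 3, the lowest of which is at 4.04. In the authors' series table this order was absent, and there 0 of all genes were called between the sets.

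Other lists of genes were read on the same arrays. Of 52 other replication genes, 20 were higher and 32 lower over all mice (median -0.049), and by limma 0 passed either threshold. Their mean difference from their own means followed that of the members from mouse to mouse, with 0.25 in WT replicate 3, -0.36 in Sting gt/gt replicate 3 and 0.19 in Sting gt/gt replicate 1. E2f2, an E2F factor, differed by -0.25 (95% interval -0.63 to 0.12) and Wdhd1, which couples polymerase alpha to the helicase, by -0.24 (95% interval -0.78 to 0.29). Across the sets 14 of 52 were called, 5 higher and 9 lower in replicates 4 to 7, where 41.3% of all genes were called.

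Of 20 mitosis genes 19 were lower in Sting gt/gt mice over all mice (median -0.14), while 45.5% of all genes were lower. By limma 0 of the 20 passed an adjusted p under 0.05 and 1 an unadjusted one (3.48% of all genes). That gene was Kif11, a spindle motor, at 0.74 ± 0.19 (SD, n = 7) in WT mice and 0.40 ± 0.28 (SD, n = 7) in Sting gt/gt mice, a difference of -0.34 (95% interval -0.62 to -0.060) that became 0.013 with slides held fixed. Kif23, a motor of cytokinesis, differed by -0.27. The study's own list of changed genes, drawn from these samples, holds both and also Top2a, another of the 20 genes, as lower in Sting gt/gt mice. The direction of these genes is therefore not independent evidence. Averaged over the 20 genes, the highest arrays were WT replicate 6 (0.38) and Sting gt/gt replicate 1 (0.29). The lowest were Sting gt/gt replicates 3 (-0.55) and 7 (-0.38). For the members these arrays were also high and low. The signs parted in WT replicate 5 (0.23 for mitosis genes, -0.070 for the members) and Sting gt/gt replicate 2 (-0.13 and 0.11). Of the 20 genes, 16 were lower in replicates 1 to 3 (median -0.20) and 14 in replicates 4 to 7 (median -0.16). The members' median in replicates 4 to 7 was 0.087.

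Markers of erythroid precursors were read in the same mice. Of 10 such genes 9 were tested, and averaged over them the difference from their own means was 0.36, -0.15 and 0.52 in WT replicates 1 to 3 and 0.70, -0.066 and -0.44 in Sting gt/gt replicates 1 to 3. On scan day 2 it was -0.015, 0.21, 0.42 and -0.090 in WT replicates 4 to 7 and -0.15, -0.27, -0.48 and -0.56 in Sting gt/gt replicates 4 to 7. The WT mice of that day stood in the same order as for the members, while all of its Sting gt/gt mice were below all of its WT mice, which for the members they were not. All 9 were lower in Sting gt/gt mice over all mice (median -0.34), with 0 past an adjusted p under 0.05 by limma and 2 past an unadjusted one (3.48% of all genes). In replicates 4 to 7 all 9 were lower (median -0.56), 4 past an unadjusted p under 0.05 (22.1% of all genes) and 0 past an adjusted one by limma, while the members' median there was 0.087. The part of erythroid precursors in the levels of the members was not tested.

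Markers of B cells ran the other way in several mice. Averaged over 7 genes, their difference from their own means was 0.57 in WT replicate 7, 0.37 in WT replicate 4 and 0.34 in Sting gt/gt replicate 3, where the members were low. It was -0.39 in WT replicate 3 and -0.32 in Sting gt/gt replicate 5, where the members were high. In Sting gt/gt replicate 6 both were below their own means (-0.29 for B cell markers, -0.093 for the members). Both also had the same sign in WT replicates 2 and 6 and in Sting gt/gt replicate 7. By limma 0 of 7 passed either threshold over all mice. In replicates 1 to 3, 6 of 7 were higher in Sting gt/gt mice (median 0.21), 1 at an unadjusted p under 0.05 (5.56% of all genes). In replicates 4 to 7 all 7 were lower (median -0.49), 5 at an unadjusted p under 0.05 (22.1% of all genes) and 0 at an adjusted one by limma. The interaction had a median of -0.75, with 6 of 7 past an unadjusted p under 0.05 (18% of all genes) and 0 past an adjusted one by limma. Their part in the levels of the members was not tested.

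**Figure D5:**
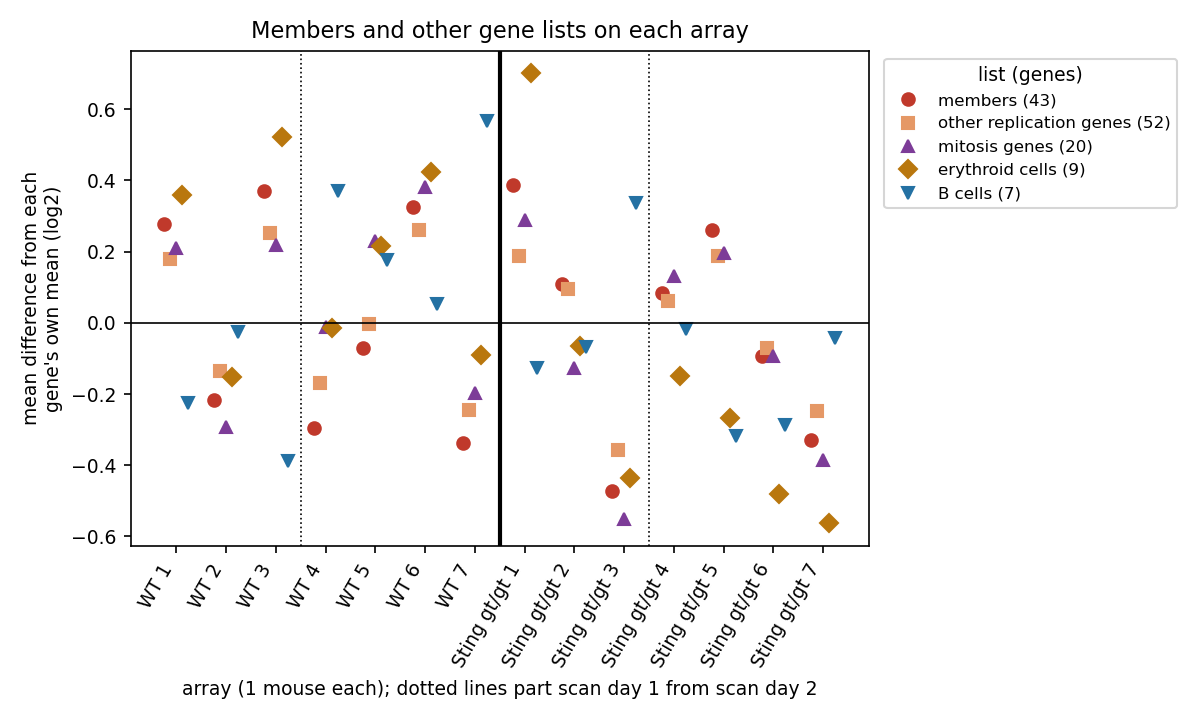
Mean log2 difference from each gene's own mean over the arrays (vertical axis) on each of the 14 arrays, 1 mouse each (horizontal axis), for the members, other replication genes, mitosis genes, erythroid markers and B cell markers, with the number of genes in brackets. Members, other replication and mitosis genes lie close together in most mice, as in Sting gt/gt replicate 3 (-0.47, -0.36 and -0.55), where B cell markers lie at 0.34. Mitosis genes lie above the other 2 lists in WT replicate 4 (-0.30, -0.17 and -0.013) and WT replicate 5 (-0.070, -0.0023 and 0.23).

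The remaining lists marked other cells of the spleen, and over all mice by limma 0 of their genes passed either threshold. Their medians were -0.10 for 5 genes of germinal centre B cells, 0.14 for 7 of plasma cells, 0.043 for 6 of T cells, 0.32 for 8 of neutrophil precursors and 0.081 for 5 of mature neutrophils. They were 0.048 for 6 genes of macrophages and monocytes, 0.035 for 5 of dendritic cells, 0.16 for 5 of NK cells and 0.021 for 4 of megakaryocytes. Of the 7 plasma cell genes 3 were called in replicates 4 to 7, all higher in Sting gt/gt mice, beside 3.68% of all genes. In replicates 1 to 3, 4 of the 7 were lower (median -0.071) and 0 were called. Their median interaction was 0.37, with 1 gene called higher by limma, beside 0.767% of all genes. Of the 8 genes of neutrophil precursors all were higher over all mice and in replicates 4 to 7 (median 0.62), 4 at an unadjusted p under 0.05 there (22.1% of all genes) and 0 at an adjusted one by limma, and their median interaction was 0.58.

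Since the members moved together, their promoters were searched for letters that many S phase genes share. The promoter table, from RefSeq on build GRCm38.p6, holds 250 bases before and 50 after a start for 34 of the 43 members, with 40 promoters in all. An E2F word (TTTCCCGC, TTTCGCGC, TTTGCCGC or TTTGGCGC, on either strand) was found in 13 of these 40 (32.5%) and in 744 of all 32851 promoters (2.27%). CCAAT on either strand was found in 24 of 40 and in 12289 of all 32851 (37.4%). Of the 34 members 8 had both and 7 had neither. A match is a description of the letters and not of a bound site, and letters missing from this window say nothing of the factor.

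The promoters of a few members named above, each with matches, are shown. They are given for 250 bases before the start on the coding strand, 5′ to 3′, with matches in capitals. Other named members are not shown, such as Rpa1 and Mcm2 (1 CCAAT match each before the start) and Pola2 (no match). Mcm3 had the largest interaction and holds 3 CCAAT matches before its start, and its 2 E2F words lie after the start and are not shown. Gins3 and Rpa2 fell between the sets, the first with 1 E2F word and 2 CCAAT matches and the other with 3 CCAAT matches. Cdc6 holds 1 E2F word and no CCAAT. They lie at chr1:20820313-20820562 (minus strand, Mcm3), chr8:95633309-95633558 (plus strand, Gins3), chr4:132768110-132768359 (plus strand, Rpa2) and chr11:98907901-98908150 (plus strand, Cdc6).
Mcm3: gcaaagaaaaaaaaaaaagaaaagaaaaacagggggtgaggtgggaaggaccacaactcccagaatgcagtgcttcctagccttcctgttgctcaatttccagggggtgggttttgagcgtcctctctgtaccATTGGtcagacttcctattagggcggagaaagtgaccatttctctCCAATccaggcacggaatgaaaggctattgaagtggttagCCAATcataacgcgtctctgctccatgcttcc
Gins3: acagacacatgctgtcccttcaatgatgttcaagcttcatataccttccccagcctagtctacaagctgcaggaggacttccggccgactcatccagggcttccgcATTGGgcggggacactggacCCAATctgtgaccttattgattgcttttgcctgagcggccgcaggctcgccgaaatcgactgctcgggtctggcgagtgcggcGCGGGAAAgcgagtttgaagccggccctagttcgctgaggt
Rpa2: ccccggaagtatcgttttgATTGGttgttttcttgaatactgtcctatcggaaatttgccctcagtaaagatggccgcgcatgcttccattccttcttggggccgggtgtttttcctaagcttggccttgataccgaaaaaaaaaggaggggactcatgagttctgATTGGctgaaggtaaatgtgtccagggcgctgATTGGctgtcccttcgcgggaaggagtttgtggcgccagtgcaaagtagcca
Cdc6: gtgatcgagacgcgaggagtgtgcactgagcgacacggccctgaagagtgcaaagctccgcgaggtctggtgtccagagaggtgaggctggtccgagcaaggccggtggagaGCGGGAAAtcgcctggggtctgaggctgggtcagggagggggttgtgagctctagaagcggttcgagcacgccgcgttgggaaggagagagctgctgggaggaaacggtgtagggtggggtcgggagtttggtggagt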

How the data were processed

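Per the file headers, the intensities of each array are processed signals from Agilent Feature Extraction 11.0.1.1, background corrected and spatially detrended within the array and not normalised between arrays. A further table of log2 values for the whole series comes from the authors; how it was normalised is not stated, its quartiles are alike on all arrays, and it served only as an alternative. The processed signal was taken to log2 and the array's 75th percentile over 59305 non-control spots subtracted. Spots carrying an outlier mark were left out (11 values of tested genes). Symbols came through RefSeq accessions for 32994 of 56605 probes, and 31766 probes were kept. Python 3.11.15, pandas 2.3.3, numpy 2.4.6, scipy 1.17.1, matplotlib 3.10.9, R 4.3.3 and limma 3.58.1 were used, with p adjusted after Benjamini and Hochberg over 24908 genes. Same-numbered arrays correlated at -0.408 to 0.248 after genotype and set means were removed, so mice were treated as unpaired. The members and the lists (other replication, mitosis, B cells, germinal centre, plasma, T, erythroid, neutrophil precursors, mature neutrophils, macrophages and monocytes, dendritic, NK, megakaryocytes) were chosen with earlier results of these data known. Within each of the 10 roles the member with the largest absolute difference in each genotype comparison or the interaction is named, and E2f1 and Pcna always. From the other replication and mitosis lists the 2 genes with the largest difference over all mice are named; single genes of the marker lists are not reported here. An exact test was planned for members past an unadjusted p under 0.05 over all mice and was not needed, since none passed.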

Additional observations from a re-analysis of the deposited data

Results flagged for a closer look

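For the 23 named members and the mean over all members, in each genotype (48 groups of 7 mice), the distance of the outermost value to its nearest neighbour was taken as a share of the range, and 3 groups exceeded the critical share for groups of that size. About 1 in 20 groups would do so by chance. Mcm2 was lowest in Sting gt/gt replicate 7, at 0.78, while the other Sting gt/gt mice lay at 2.66 or above (share 0.724). Mcm3 was lowest in Sting gt/gt replicate 3, at 4.10 (share 0.588), the mouse in which 24 of 43 members had their lowest value. Pola2 was highest in WT replicate 6, at -1.80 (share 0.619). No spot of these genes was saturated, and why these values stand apart was not tested.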

How the results depend on the processing

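All members were well above background on all arrays, so signal over background limits none of them. With 7 mice per genotype, and 3 or 4 per genotype within a set, single mice moved many values, and on scan day 2 the slide cannot be told apart from the genotype.

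Over all mice 0 members were called under any alternative or with 1 array left out, where 0 to 6 of all genes were called. The median of the members ran from -0.066 (no scaling) to 0.089 (slide as fixed block) over the alternatives. In replicates 1 to 3 it ran from -0.29 to -0.12 and in replicates 4 to 7 from 0.044 to 0.15 over the alternatives, but with 1 array left out they reached 0.085 and -0.014, so both turned. The median interaction ran from 0.20 to 0.42. With the replicate number as block, pairing same-numbered mice, the median over all mice was -0.012 with 0 called, which changed no call. Median centring moved the median of all genes from -0.0037 to 0.11 in the interaction, and leaving dim probes unfiltered moved it to -0.21 between the sets.

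In replicates 4 to 7, 1 member passed an unadjusted p under 0.05 with quantile normalisation, the authors' table and the methods' t-test. So did 1 with slide as random block and with separate fits, and 3 with array weights and an intensity trend, changed together. Where 1 member passed, from 5251 (the authors' table) to 6754 (slide as random block) of all genes did. In the interaction 1 member passed it with median centring, no scaling, normexp, the filter on all 14 arrays and slide as random block. There 2 passed with quantile normalisation and the authors' table, and 9 with array weights and trend. Where 1 or 2 members passed, from 3056 (no scaling) to 4892 (slide as random block) of all genes did. Between the sets 0 members were called in the authors' table and 7 with array weights and trend, and 0 and 13 passed an unadjusted p under 0.05. Of all genes 0 and 12050 were called there, and 451 and 13718 passed an unadjusted p under 0.05. With array weights and trend 7619 of all genes passed it in replicates 4 to 7 and 5656 in the interaction. The cause was not tested.

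Over all mice, slide as fixed block gave 0.15 for Ccne2, 0.12 for Cdc6, 0.049 for Lig1, 0.22 for Tyms, 0.12 for Pcna, 0.062 for E2f2 and 0.013 for Kif11, where fewer arrays are compared. Slide as random block gave 0.030 for Tyms. Array weights and trend gave 0.034 for Lig1 and -0.012 for Rpa3, and no scaling gave -0.027 for Rpa3. The authors' table gave 0.062 for Ccne2 and 0.037 for Gins3 between the sets. All of these reversed, and the cause was not tested.

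With single arrays left out, 0 to 1 members passed an unadjusted p under 0.05 in replicates 1 to 3. The highest count came without Sting gt/gt replicate 1, where 1852 of all genes passed. In replicates 4 to 7 and in the interaction 0 to 3 members passed, with 3 in each without WT replicate 6. There 5200 of all genes passed in replicates 4 to 7 and 4487 in the interaction. Between the sets 2 (without WT replicate 1) to 8 (without Sting gt/gt replicate 3) members were called, and 4 to 13 passed an unadjusted p under 0.05. Of all genes 9148 and 10170 were called without these arrays, and 11496 and 12328 passed an unadjusted p under 0.05.

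In replicates 1 to 3, leaving out Sting gt/gt replicate 1 gave the lowest and replicate 3 the highest value: -0.49 and 0.035 for Ccne1, -0.51 and 0.024 for Cdt1, -0.44 and 0.026 for Fen1, -0.42 and 0.025 for Mcm10, -0.44 and 0.048 for Pole, and -0.35 and 0.0068 for Rpa2. Rfc1 ran from -0.21 (without WT replicate 2) to 0.0049 and Rrm2 from -0.38 (without Sting gt/gt replicate 2) to 0.084, both highest without Sting gt/gt replicate 3.

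Over all mice Lig1 ran from -0.11 (without WT replicate 7) to 0.077, Pole from -0.0069 (without WT replicate 5) to 0.17, Tyms from -0.14 (without Sting gt/gt replicate 1) to 0.030 and Pcna from -0.15 (without WT replicate 2) to 0.031, each highest without Sting gt/gt replicate 3. Mcm2 ran from -0.40 (without WT replicate 7) to 0.049 (without Sting gt/gt replicate 7) and Rpa3 from -0.054 (without WT replicate 2) to 0.11 (without WT replicate 6). In replicates 4 to 7 Mcm2 ran from -0.54 (without Sting gt/gt replicate 5) to 0.23 (without Sting gt/gt replicate 7), Prim1 from -0.21 (without WT replicate 4) to 0.020 and Rrm2 from -0.059 (without WT replicate 7) to 0.21, both highest without WT replicate 6. The cause was not tested beyond the array left out.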
